A study of Rattus norvegicus with 12 samples.

Results

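The genes described here are 40 genes of mitosis, spindle assembly and cytokinesis, chosen by name and with earlier results of these data known. The question put to them was whether their transcript levels differed between rat lines in the estrogen-treated anterior pituitary gland. Of the 40 genes, 35 had at least 1 probe set carrying that gene symbol alone (51 probe sets of the 31099 on the array), and the brightest probe set of each gene was used. *Nek2*, *Ndc80*, *Tpx2* and *Ncapg* had no such probe set, and *Anln* had only a probe set shared with another symbol. All 35 measured genes were bright enough to be tested, so none was lost to the filter on dim probe sets.

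The 12 arrays held anterior pituitary RNA of male rats from 4 congenic lines, 3 arrays for each of Ept1, Ept2, Ept6 and Ept9. A congenic line carries a segment of 1 strain on the genome of another, and here alleles of the COP strain had been bred onto the ACI background, within a locus on rat chromosome (RNO) 6 in Ept1, RNO3 in both Ept2 and Ept6, and RNO10 in Ept9. Every animal of every line had carried an implant of 5 mg diethylstilbestrol (DES, a synthetic estrogen) for 12 weeks, beginning when it was 9 weeks old and ending at 21 weeks, and had received 50 mg/kg of the thymidine analog BrdU 4 h before the end. There was no sham-treated and no ACI array among these samples, so lines could be compared only with one another, and a comparison of 1 line with the mean of the other 3 shares its arrays with every other such comparison. The sources used here give no bounds for the COP segments. The labels conflict on replication, with 3 biological replicates per line in the design text and fewer independent replicates than animals in the notes on single samples. Here each array counted as 1 replicate of its line, so part of the spread behind the p-values may be technical. In that case the p-values would be too small and the intervals too narrow.

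Estrogens drive lactotrophs, the prolactin-producing cells of the anterior pituitary gland, to divide, and sustained treatment of susceptible rats enlarges the gland. Genes of mitosis are transcribed mainly in the late part of the cell cycle, so their summed level in a tissue is widely read as a proxy for dividing cells. At the onset of mitosis the condensins and topoisomerase compact and untangle the chromosomes, kinesins build the spindle, and kinetochores attach chromosomes to it under the watch of the spindle checkpoint. The anaphase promoting complex (APC/C) then releases the sister chromatids, and the central spindle directs cytokinesis. In bulk tissue, fewer cells of a type and less RNA per cell cannot be told apart.

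Promoters of such genes commonly hold a CCAAT box, bound by NF-Y, and a cell cycle genes homology region (CHR), bound by the DREAM and MYB-MuvB complexes. The promoter windows of 35 of the 40 genes were found in RefSeq (GRCr8). These are not the same 35 as the measured genes. They include the unmeasured *Anln*, *Ncapg*, *Ndc80* and *Nek2*, and they lack the measured *Aurkb*, *Incenp*, *Racgap1* and *Ube2c*. Each window ran from 250 bases before to 50 bases after the annotated start. All windows were searched on both strands for CCAAT and for the CHR letters TTTGAA or TTCGAA. The 3 promoters shown are those of the genes whose level passed a test below, with the 250 bases before the start given 5′ to 3′ on the strand of the gene, in lower case with matches in capitals (TTCAAA is TTTGAA on the other strand).
*Fam83d*, chr3:167841542-167841791, plus strand: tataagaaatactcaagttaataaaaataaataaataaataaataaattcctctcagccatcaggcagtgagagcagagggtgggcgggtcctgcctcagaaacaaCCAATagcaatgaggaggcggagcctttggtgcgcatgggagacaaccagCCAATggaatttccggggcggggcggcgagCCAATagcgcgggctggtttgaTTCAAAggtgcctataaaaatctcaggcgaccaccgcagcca
*Birc5*, chr10:103571896-103572145, plus strand: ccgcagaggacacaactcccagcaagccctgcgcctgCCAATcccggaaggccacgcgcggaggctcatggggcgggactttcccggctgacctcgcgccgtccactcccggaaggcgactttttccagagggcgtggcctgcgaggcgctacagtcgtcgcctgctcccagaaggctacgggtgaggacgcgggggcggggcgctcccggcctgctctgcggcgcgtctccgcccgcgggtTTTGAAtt
*Bub1*, chr3:135504922-135505171, minus strand: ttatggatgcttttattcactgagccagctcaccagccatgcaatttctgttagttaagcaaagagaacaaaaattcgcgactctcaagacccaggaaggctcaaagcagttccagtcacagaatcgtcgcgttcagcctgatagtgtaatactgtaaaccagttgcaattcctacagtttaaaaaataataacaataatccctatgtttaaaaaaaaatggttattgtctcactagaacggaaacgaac
The *Fam83d* promoter held 3 CCAAT boxes and 1 CHR match, *Birc5* held 1 of each, and the *Bub1* window held neither set of letters. CCAAT was found in 25 of the 35 promoters (71.4%), against 37.5% of all 33469 promoter windows. A CHR match was found in 26 (74.3%), against 19.7% of all windows, and both motifs in 20 (57.1%), against 7.95%. A CHR match that began between 50 bases before and 20 bases after the start was present in 15 of 35 (42.9%), against 4.17% of all windows. These matches describe the sequences and are not measured binding sites.

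Measured signals were scaled by the authors to a trimmed mean of about 500 per array (500.18 to 500.19). Pairs of arrays correlated at 0.966 to 0.983 over the probe sets, and none were identical. *Prl*, which encodes prolactin, gave 41979.1 to 51766.7 on every array and *Gh1*, the growth hormone gene, 27923 to 40693.1, while the probe set of *Pomc*, the corticotroph hormone gene, was dim (10.6 to 151.9). All differences below are on the log2(signal + 16) scale, which understates the change of dim genes, and adjusted p-values are from limma with Benjamini-Hochberg adjustment over the 18626 probe sets tested.

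Averaged over the 35 genes, mitotic transcripts were lowest in Ept2, and the other 3 lines lay close together. The mean log2(signal + 16) was 8.15 ± 0.09 in Ept1, 7.87 ± 0.15 in Ept2, 8.10 ± 0.04 in Ept6 and 8.19 ± 0.05 in Ept9 (SD, n = 3). The 3 Ept2 arrays gave means of 7.73, 7.84 and 8.02, and the 9 other arrays lay between 8.05 and 8.23. The Ept2 arrays thus lay below all the others, though by only a small gap for replicate 3, and the other 3 lines overlapped with one another. The Ept2 mean differed from the other 3 lines by -0.28, a ratio of 0.822, the Ept9 mean by 0.15 (a ratio of 1.11), the Ept1 mean by 0.10 and the Ept6 mean by 0.03. Ept9 and Ept1 differed by less than their spread, and without Ept1 replicate 2 the Ept1 difference was 0.15 and that of Ept9 0.14. These are descriptions of a chosen list and carry no p-value. Ept2 had the lowest line mean in 25 of the 35 genes and the highest in 3, while Ept9 had the highest in 15 and Ept1 in 11. Among the Ept2 arrays, replicate 1 held the lowest of the 12 signals for 16 genes, replicate 2 for 6 and replicate 3 for 3, so the replicates contributed unequally.

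**Figure D1:**
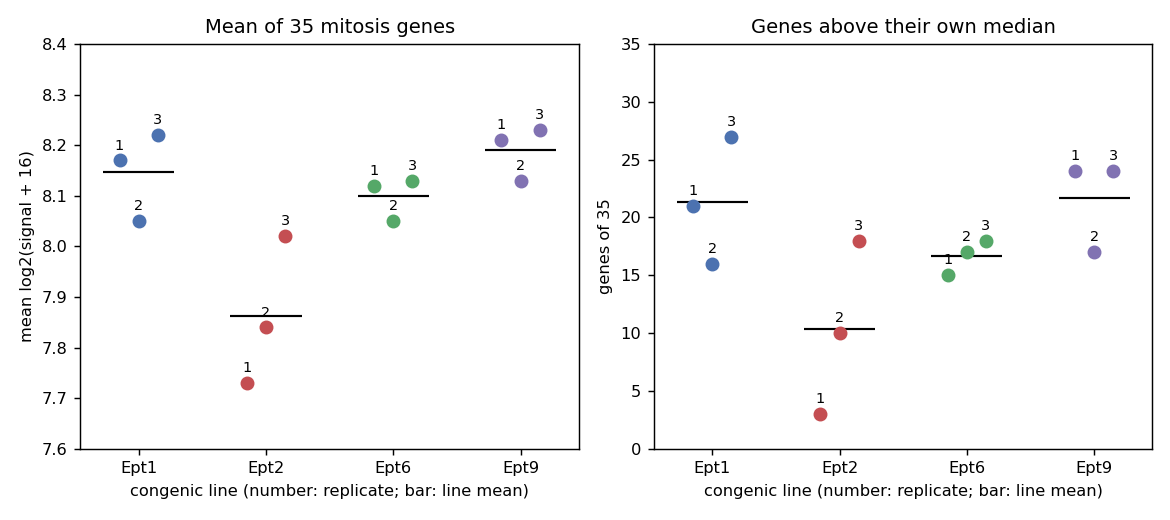
The left panel plots the mean log2(signal + 16) of the 35 genes on each array and the right panel the number of the 35 genes above their own 12-array median, by congenic line, with points numbered by replicate and bars at the line means. The Ept2 arrays have the 3 lowest means (7.73 to 8.02), and Ept2 replicate 1 has 3 genes above their median where Ept1 replicate 3 has 27.

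In Ept2, 31 of the 35 genes (88.6%) had estimates below 0 against the other 3 lines, where 48.2% of all probe sets did, with a median difference of -0.24 against 0.01 over all probe sets. After adjustment, 3 genes passed in Ept2, all lower (*Fam83d*, *Bub1* and *Birc5*), where 0.451% of all probe sets were called lower. At an unadjusted p under 0.05, 14 of the 35 were lower in Ept2 and 0 higher, where 7.22% of all probe sets were lower. Without Ept2 replicate 1, the array with the lowest mean, 26 of 35 lay below 0 (49.0% of all probe sets did) with a median of -0.17. In that fit 9 were lower at an unadjusted p under 0.05, where 13.6% of all probe sets had such a p in either direction. Leaving out Ept1 replicate 1 also took the count of lower genes to 9 (13.4% of all probe sets in either direction). With that array left out 31 genes were still below 0 (48.0% of all probe sets). The 3 adjusted calls became 2 without Ept2 replicate 2 or Ept9 replicate 1 or 2, 1 without Ept9 replicate 3 or any 1 array of Ept1 or Ept6, and 0 without Ept2 replicate 1 or 3. Quantile normalization left 31 and median centring 32 genes below 0, where 49.8% and 56.3% of all probe sets lay below 0. The Ept2 estimates of 10 of the 35 genes changed sign under at least 1 alternative (*Mad2l1*, *Aurkb*, *Kif22*, *Kif2c*, *Ncapd2*, *Cdc20*, *Ube2c*, *Espl1*, *Ect2* and *Racgap1*), all of them estimates between -0.23 and 0.16, so that the counts by role given next include genes without a settled direction.

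**Figure D2:**
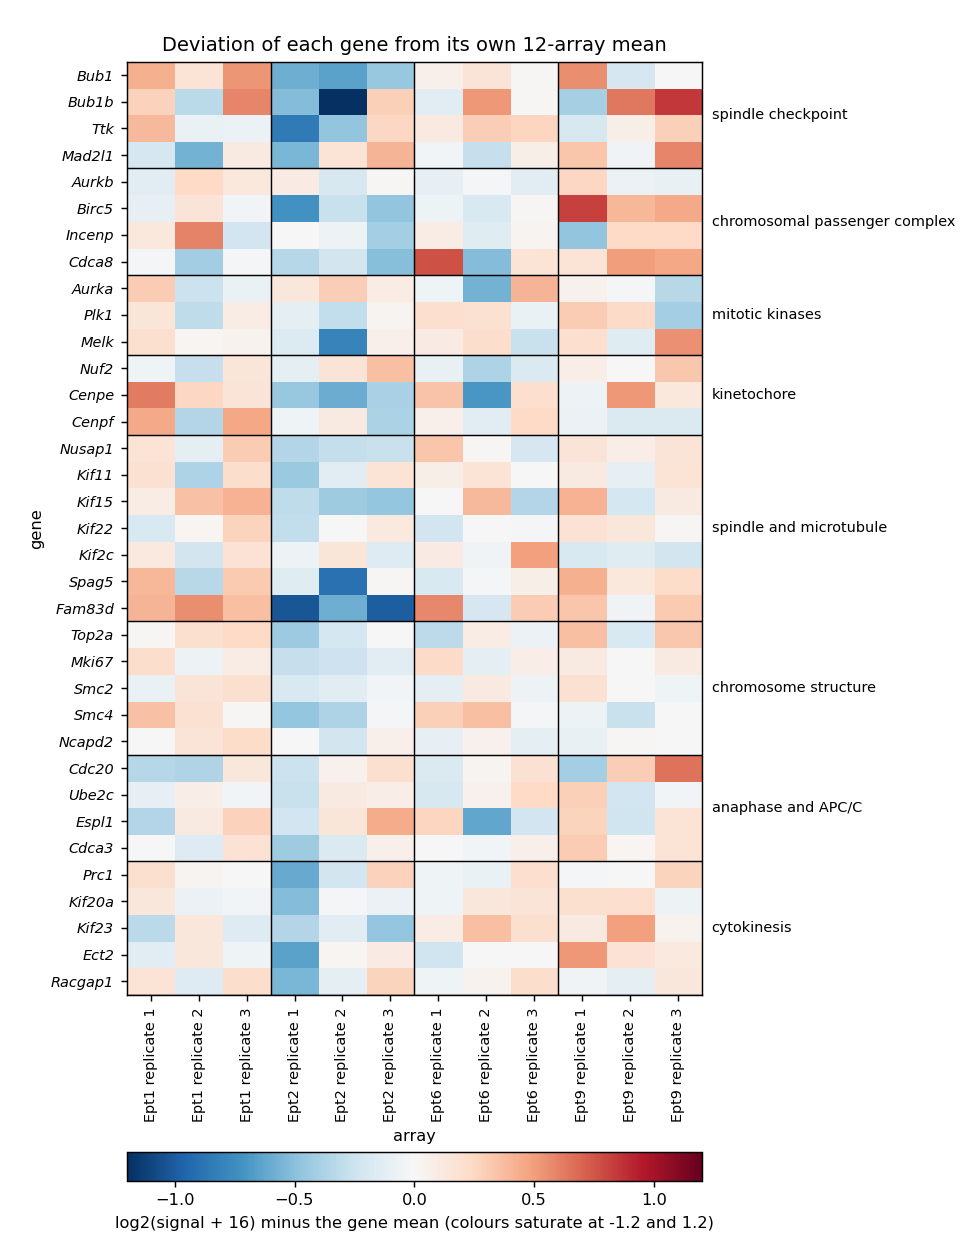
Each row is 1 of the 35 measured genes, grouped by role, each column 1 of the 12 arrays, and the colour is log2(signal + 16) minus the mean of that gene over the 12 arrays (blue lower, red higher). The Ept2 columns are the bluest, most of all replicate 1, where 16 genes have their lowest signal, and *Fam83d* is blue on all 3 Ept2 arrays.

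The spindle and microtubule group held the largest single difference. *Fam83d* encodes a spindle protein that brings the kinase CK1 alpha to the mitotic spindle. Its signal was 310.9, 344.8 and 299.8 in Ept1, 104.8, 147.4 and 107.8 in Ept2, 350.4, 197.6 and 287.6 in Ept6, and 293.0, 223.2 and 289.4 in Ept9. All 3 Ept2 arrays lay below the 9 others, and the other 3 lines overlapped. The difference of Ept2 from the other lines was -1.16 (SE 0.16, 95% interval -1.51 to -0.81), that is 2.23-fold lower (adjusted p = 0.0143), and the levels differed among the 4 lines (adjusted p = 0.0302). Ept2 was lower than each line taken singly, 2.48-fold against Ept1 (adjusted p = 0.04), 2.13-fold against Ept6 (adjusted p = 0.0393) and 2.1-fold against Ept9 (adjusted p = 0.0324). Across all probe sets, 0.102% were called between Ept1 and Ept2, 0.628% between Ept2 and Ept6, and 0.832% between Ept2 and Ept9. The difference of Ept2 from the other 3 lines lost its call without Ept2 replicate 1 or replicate 3 (highest adjusted p = 0.0789), with estimates from -1.30 to -0.93 over all alternatives. The calls in single pairs were less firm, and each was lost when any 1 array of Ept1 or Ept9, Ept2 replicate 1 or 3, or Ept6 replicate 3 was left out (without Ept2 replicate 2 also against Ept1, and without Ept6 replicate 1 also against Ept6).

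The other 6 measured genes of the group all had Ept2 estimates below 0, and the median over the 7 was -0.41. *Nusap1*, which encodes a protein that bundles spindle microtubules, had signals of 380.1, 397.2 and 403.0 in Ept2 and from 423.8 to 622.4 elsewhere. Ept2 did not overlap the others, but the difference of -0.41 did not pass (adjusted p = 0.143). A second *Nusap1* probe set gave -0.46. *Kif15*, a kinesin of the spindle, read 68.0, 61.0 and 58.9 in Ept2 against 65.0 to 122.4 elsewhere, and only the first of these overlapped, with Ept6 replicate 3 (adjusted p = 0.165). *Spag5*, *Kif11*, *Kif22* and *Kif2c* did not pass in any comparison.

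In the spindle checkpoint, which holds cells until every chromosome is attached, 3 of the 4 genes lay below 0 in Ept2, with a median of -0.61. *Bub1* encodes a checkpoint kinase of the kinetochore. Its signal was 224.3, 185.0 and 243.3 in Ept1, 103.2, 98.7 and 114.8 in Ept2, 171.3, 183.2 and 164.8 in Ept6, and 248.5, 139.6 and 162.2 in Ept9. The Ept2 arrays were tightly grouped below all the others, whereas Ept9 replicate 1 stood well above its line mates. *Bub1* was 1.68-fold lower in Ept2 (-0.75, SE 0.14, 95% interval -1.07 to -0.44, adjusted p = 0.0454), and the F test among the 4 lines did not pass (adjusted p = 0.097). That call was lost on leaving out any 1 array other than Ept9 replicate 1 or replicate 2, with adjusted p-values up to 0.133. *Bub1b*, which encodes the checkpoint protein BubR1, showed a larger estimate (-0.90) but a wide spread, with Ept2 signals of 58.8, 14.8 and 115.1 against 65.6 to 177.1 elsewhere (adjusted p = 0.338). *Ttk* (-0.48) and *Mad2l1* (0.01) did not pass either. Further *Mad2l1* probe sets gave -0.19 and -0.13 in Ept2, and a further *Ttk* probe set, too dim to be tested, gave 0.68.

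The chromosomal passenger complex, which corrects faulty attachments and later acts in cytokinesis, had all 4 genes below 0 in Ept2 and a median of -0.34. *Birc5*, which encodes its subunit survivin, gave signals of 112.4, 136.8 and 117.6 in Ept1, 66.7, 97.7 and 82.9 in Ept2, 115.5, 104.7 and 122.3 in Ept6, and 226.6, 164.2 and 172.4 in Ept9. It was the only gene of the 35 whose arrays stood apart at both ends, with Ept2 below and Ept9 above all other arrays. *Birc5* was 1.57-fold lower in Ept2 (-0.65, SE 0.12, 95% interval -0.91 to -0.39, adjusted p = 0.0399) and 1.68-fold higher in Ept9 (0.75, SE 0.12, 95% interval 0.48 to 1.01, adjusted p = 0.0256). Taken directly, Ept2 was 2.07-fold lower than Ept9 (adjusted p = 0.0108), and this call held under all 21 alternatives in which the gene was tested (adjusted p from 0.00553 to 0.0416). The Ept2 call was lost on leaving out any 1 array but Ept2 replicate 2 (up to adjusted p = 0.128). The Ept9 call was lost without Ept1 replicate 1 or 3, Ept6 replicate 1, or any 1 of the Ept9 arrays (up to adjusted p = 0.119). *Cdca8*, which encodes the subunit borealin, averaged 107.7 ± 12.2 in Ept2 and 190.1 ± 25.7 in Ept9 (SD, n = 3), and Ept6 alone ran from 94.3 to 253.0, so the lines overlapped (F test, adjusted p = 0.415). *Aurkb*, the kinase of the complex, ran from 142.9 to 199.9 over the 12 arrays and had the Ept2 estimate nearest to 0 of the group (-0.04).

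**Figure D3:**
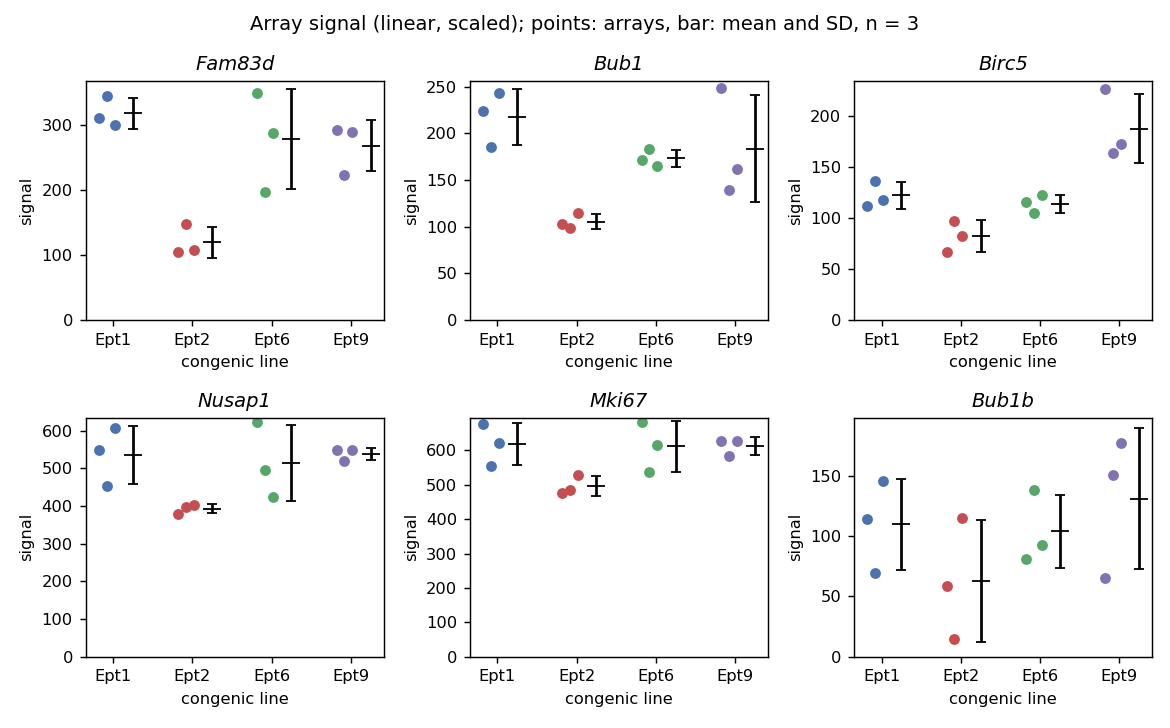
Deposited signal (linear, scaled) of 6 genes on each of the 12 arrays by congenic line, with the mean and SD of each line (n = 3) beside the points. The Ept2 points of *Fam83d*, *Bub1*, *Birc5*, *Nusap1* and *Mki67* lie below all others, those of *Bub1b* spread from 14.8 to 115.1, and *Birc5* is highest in Ept9 (164.2 to 226.6).

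Chromosome structure genes were all below 0 in Ept2 (5 of 5, median -0.29), and none passed after adjustment. *Mki67*, which encodes the proliferation antigen Ki-67, read 677.0, 554.7 and 621.0 in Ept1, 476.2, 486.0 and 529.9 in Ept2, 682.2, 536.8 and 615.9 in Ept6, and 626.3, 582.6 and 628.7 in Ept9. The Ept2 arrays lay below the others by a narrow margin, at a ratio of 0.816 (-0.29, SE 0.09, adjusted p = 0.164). *Top2a*, the topoisomerase of dividing cells, overlapped among lines, with 278.3, 328.3 and 380.8 in Ept2 and 304.1 to 495.4 elsewhere (F test, adjusted p = 0.479). *Smc4*, a condensin subunit, read 253.5, 272.2 and 353.1 in Ept2 and 292.8 to 461.6 elsewhere (F test, adjusted p = 0.266). A second, dimmer *Smc4* probe set gave 0.16 in Ept2, where the one used gave -0.38. In all, 5 of the 35 genes (14.3%) had every Ept2 array below the 9 others, where 1.68% of all probe sets did, and they were *Fam83d*, *Bub1*, *Birc5*, *Nusap1* and *Mki67*.

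Of the kinetochore genes 2 of 3 lay below 0 in Ept2. *Cenpe*, a kinesin that moves chromosomes to the spindle equator, read 58.6, 51.7 and 62.1 in Ept2, and apart from Ept6 replicate 2 (47.4) the other arrays ran from 82.1 to 141.6 (F test, adjusted p = 0.32). The mitotic kinases were mixed. *Plk1*, a kinase that acts from mitotic entry to cytokinesis, ran from 149.2 to 255.1 with every line overlapping (F test, adjusted p = 0.863), and *Aurka*, the spindle pole kinase, had its highest mean in Ept2 (0.23 above the others, not passing). In the anaphase and APC/C group the Ept2 median was -0.02. *Cdc20*, the activator of the APC/C, read 289.5, 362.9 and 402.3 in Ept2 within a range of 259.7 to 559.1 (F test, adjusted p = 0.794), and *Ube2c*, its ubiquitin-conjugating enzyme, had the largest F test p of the 35 (adjusted p = 0.99). For *Cdc20*, a second, dimmer probe set that was tested gave -0.31 in Ept2, where the one used gave -0.01. It gave 0.23 in Ept1 and -0.11 in Ept9, where the one used gave -0.25 and 0.24. Further *Cdc20* probe sets were too dim to be tested. All 5 cytokinesis genes lay below 0 in Ept2 (median -0.24) and none passed. *Kif23*, the motor of the central spindle, read 150.0, 178.8 and 137.3 in Ept2, 153.8, 217.4 and 174.8 in Ept1, and 201.9 to 281.6 in Ept6 and Ept9, so that both Ept1 and Ept2 had lower means (F test, adjusted p = 0.242). *Prc1*, *Kif20a*, *Ect2* and *Racgap1* each had their lowest Ept2 signal on replicate 1.

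Among the 4 lines, 2 of the 35 genes (*Fam83d* and *Birc5*) passed the F test, where 0.988% of all probe sets did, and 9 (25.7%) had an unadjusted p under 0.05, where 14.1% did. *Fam83d* kept this call on leaving out Ept2 replicate 2, Ept6 replicate 1 or 2, or Ept9 replicate 2 and lost it without any other array, and *Birc5* kept it only without Ept2 replicate 2.

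In Ept9, 29 of the 35 genes (82.9%) had estimates above 0, where 46.3% of all probe sets did, with a median of 0.14 against -0.01. Ept2 is among the lines that Ept9 was set against, and Ept1, likewise set against a mean that includes Ept2, had 26 of 35 above 0 (74.3%, where 53.3% of all probe sets were) with a median of 0.10. Taken directly, 20 of the 35 genes were lower in Ept1 than in Ept9 (57.1%, where 46.0% of all probe sets were), with a median difference of -0.02 against 0.02. *Birc5* alone passed, where 0.419% of all probe sets were called higher, and it was also the only gene with every Ept9 array above the 9 others, where 1.29% of all probe sets were. At an unadjusted p under 0.05, 4 genes (11.4%) were higher, *Cdca8* (0.50) and *Ect2* (0.36) among them, where 4.32% of all probe sets were. Without 1 array the number above 0 ran from 24 (without Ept9 replicate 1) to 30, where 52.7% to 54.1% of all probe sets lay below 0. The number at an unadjusted p under 0.05 fell to 2 without Ept1 replicate 1 or 3, Ept2 replicate 1 or Ept6 replicate 3. In those fits 9.85% to 11.5% of all probe sets had such a p in either direction. In Ept1, limma called 0 of the 35 after adjustment, where 0.193% of all probe sets were called, and 4 were higher at an unadjusted p under 0.05 (3.55% of all probe sets), namely *Fam83d* (0.59), *Bub1* (0.50), *Cenpe* (0.46) and *Kif15* (0.38). In Ept6 limma also called 0, where 0.161% were called, with *Smc4* (0.28) and *Kif23* (0.29) higher (5.28% of all probe sets) and *Nuf2* (-0.28) lower (5.37%) at an unadjusted p under 0.05. Limma called 0 genes between Ept1 and Ept6 (0.204% of all probe sets called), Ept1 and Ept9 (0.494%) or Ept6 and Ept9 (0.123%). At an unadjusted p under 0.05 there were 0, 1 and 3 of the 35 genes in these pairs. Of all 18626 probe sets, 1203, 1901 and 1851 had such a p, so these counts do not stand above the share over all probe sets.

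**Figure D4:**
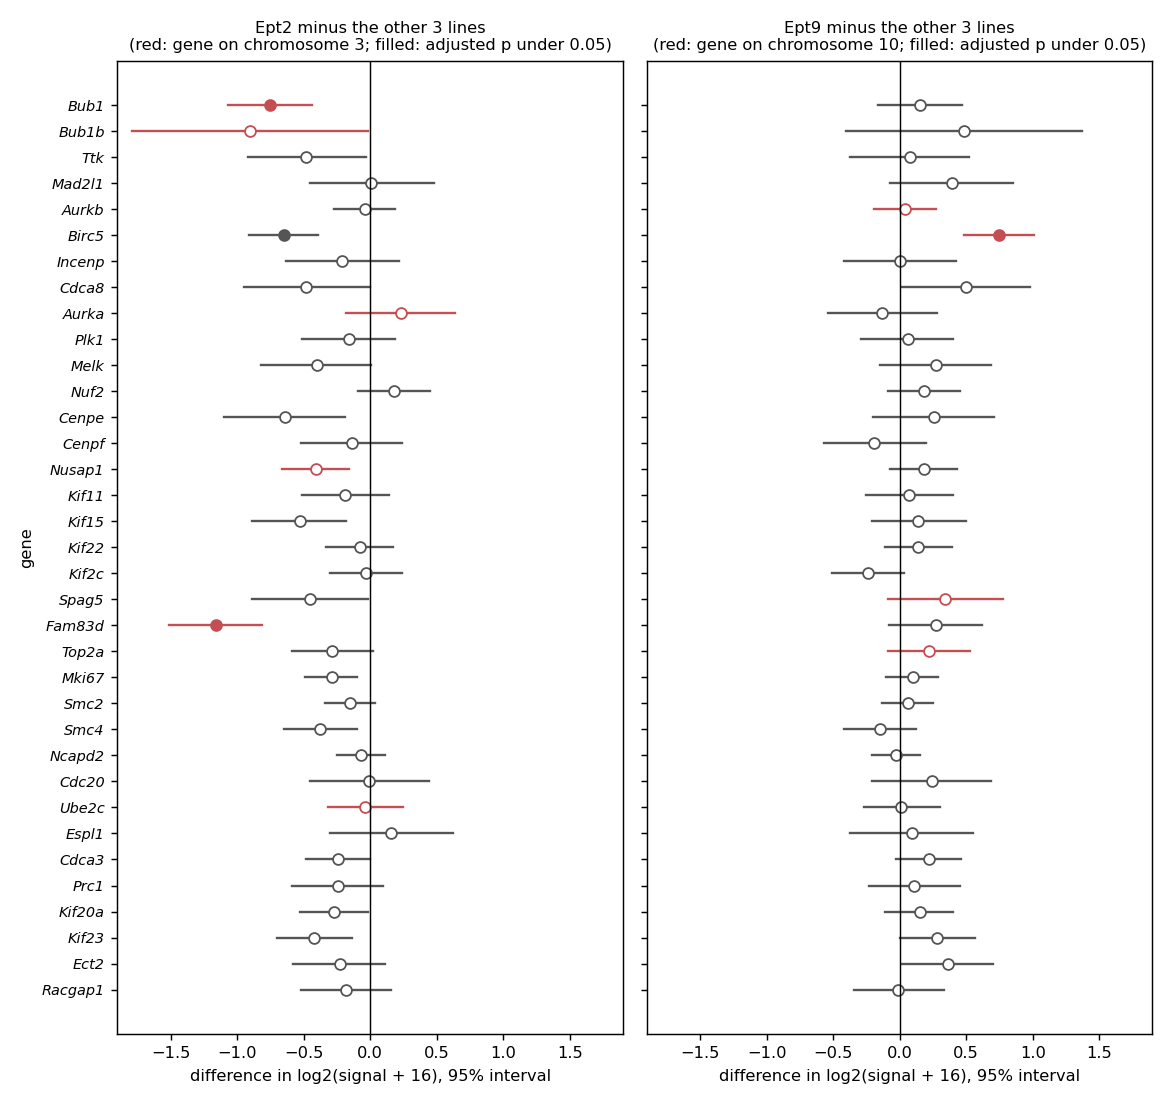
Differences of Ept2 (left) and Ept9 (right) from the mean of the other 3 lines in log2(signal + 16) for the 35 genes, with 95% intervals, filled where the adjusted p is under 0.05 and red where the gene lies on the chromosome of that line's COP segment. In Ept2 31 of 35 estimates lie left of 0 and *Fam83d* lies farthest left (-1.16), and in Ept9 29 of 35 lie right of 0 with *Birc5* farthest right (0.75).

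Some of the genes lie on the chromosome that carries a COP segment, and whether they lie inside it is not known from the sources used here. On RNO3 the measured genes are, in order along the chromosome, *Bub1b*, *Nusap1*, *Bub1*, *Fam83d*, *Ube2c* and *Aurka*. In Ept2, 5 of these 6 lay below 0 with a median of -0.58, and 2 passed (33.3%, where 3.04% of all tested probe sets on RNO3 were called). The other 29 genes had 26 below 0 with a median of -0.23, and 1 passed (3.45%, where 0.598% of probe sets on the other chromosomes were called). Without the genes on RNO3, the mean over the rest differed in Ept2 by -0.24, a value chosen after seeing the data. In Ept6, whose segment is on the same chromosome, the 6 genes had a median of 0.08 and limma called 0 of them, with 0 at an unadjusted p under 0.05. On RNO10 all 4 measured genes (*Aurkb*, *Spag5*, *Top2a* and *Birc5*) lay above 0 in Ept9 with a median of 0.28 (*Aurkb* not so without Ept9 replicate 1), and *Birc5* passed (1 of 4, where 2.92% of probe sets on RNO10 were called). The other 31 genes had 25 above 0 with a median of 0.14. None of the 35 lies on RNO6.

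Other genes of mitosis were read from lists outside the 40, of which 105 genes were tested. In Ept2, 74 of the 105 had estimates below 0 (48.2% of all probe sets did) with a median of -0.09, and 1 passed as lower (0.451% of all probe sets did). In Ept9, 71 lay above 0 (46.3% of all probe sets did) with a median of 0.07, and 1 passed as higher (0.419%). An unadjusted p under 0.05 in either direction was found for 13 of the 105 in Ept2, where 14.4% of all probe sets had such a p. In Ept9 it was found for 14 of the 105, where 11.0% of all probe sets had it. The F test called 3 of the 105, where 0.988% of all probe sets were called. Counts of 1 in 105 are close to the share over all probe sets. The Ept2 and Ept9 calls both fell on *Lmnb1*, which encodes lamin B1 of the nuclear envelope. Its mean signal was 324.3 in Ept1, 283.0 in Ept2, 487.4 in Ept6 and 546.8 in Ept9, and with 352.1 as the highest array of Ept1 and Ept2 and 471.1 as the lowest of Ept6 and Ept9, the pairs of lines did not overlap (Ept2 -0.62, adjusted p = 0.0332, Ept9 0.60, adjusted p = 0.0404). *Pbk*, a mitotic kinase gene, split otherwise, with means of 421.1 in Ept1 and 475.5 in Ept9 against 294.6 in Ept2 and 281.9 in Ept6 (F test, adjusted p = 0.0421). *Ube2s*, which encodes the enzyme that extends ubiquitin chains for the APC/C, had means of 5094 in Ept1 and 5306 in Ept2 against 7931 in Ept6 and 8005 in Ept9 (F test, adjusted p = 0.0488). The order of the lines thus differed among these 3 genes. Cyclin B1 (*Ccnb1*), its kinase (*Cdk1*), securin (*Pttg1*) and *Foxm1*, a transcription factor of mitotic genes, did not pass in Ept2. The differences were -0.39 for *Ccnb1* (adjusted p = 0.231) and -0.23 for *Cdk1* (adjusted p = 0.425). For *Pttg1* the difference was -0.23 (adjusted p = 0.558) and for *Foxm1* -0.07 (adjusted p = 0.872). By list, the Ept2 median was -0.28 for late mitosis and cytokinesis (10 of 11 below 0), -0.23 for the CDK1 and cyclin B core (8 of 11), -0.11 for the spindle and centrosome (16 of 21), -0.09 for the kinetochore and centromere (18 of 27), -0.06 for cohesin, condensin and the APC/C (17 of 25) and -0.03 for mitotic transcription factors (5 of 10).

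**Figure D5:**
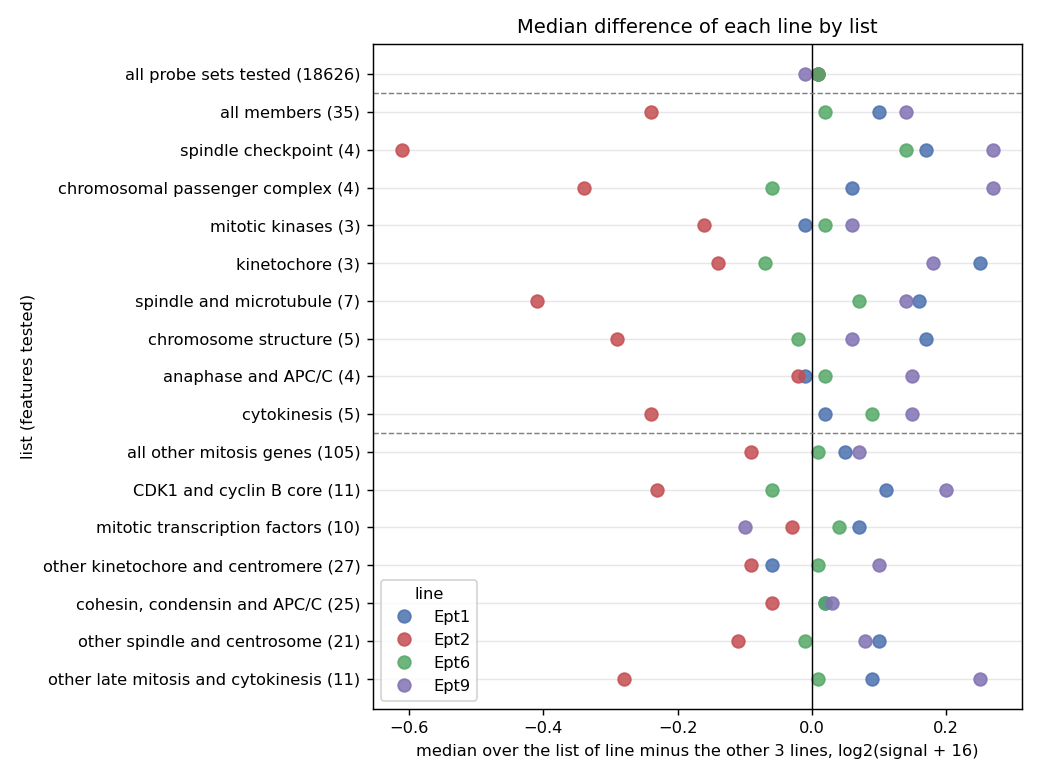
Median over each list of the difference between a line and the other 3 lines in log2(signal + 16), with 1 point per line and the number of genes tested in brackets. The top row is all 18626 probe sets, near 0 in every line, and the Ept2 points lie farthest left in most rows, at -0.61 for the spindle checkpoint and -0.28 for the other late mitosis and cytokinesis genes.

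Several other measures moved with Ept2. The Gapdh control probe sets, whose 3′ minus 5′ difference grows as RNA degrades, gave 0.40, 0.31 and 0.42 in Ept2 and 0.09 to 0.28 on the other arrays. The same difference for hexokinase was 1.54, 1.07 and 1.26 in Ept2 and 0.64 to 1.40 elsewhere, and Ept2 replicate 1, with the lowest mean of mitotic genes, had the highest of the 12. For beta-actin it was 1.76 to 1.85 in Ept2 and 1.49 to 1.79 elsewhere. Some markers of other cell types also had higher or lower signals in Ept2. The summed signal of 4 markers of folliculostellate and stem cells was 1410 to 1935 in Ept2 and 903.2 to 1362 elsewhere, and all 4 estimates lay above 0. For 4 gonadotroph markers it was 963.5 to 2450 in Ept2 and 851 to 1118 elsewhere, which overlapped, again with all 4 above 0. For 3 thyrotroph markers it was 10800 to 22080 in Ept2 and 8032 to 13180 elsewhere, also overlapping, and both tested markers lay above 0. For 3 somatotroph markers it was 36190 to 40990 in Ept2 and 28120 to 34580 elsewhere, and for 3 corticotroph and melanotroph markers 1171 to 1247 against 1464 to 2151. In these last 2 lists 1 tested marker lay above 0 and 1 below, and the sums rest mainly on *Gh1* (mean 38320 in Ept2 and 30820 to 32970 in the other lines) and on *Pcsk2*, a prohormone convertase gene (1016 against 1575 to 1614). Of the 14 markers tested in these 5 lists, limma called 0 in Ept2 against the other 3 lines. An unadjusted p under 0.05 was found for 10 of the 14, where 14.4% of all probe sets had such a p. In the lists that follow, it was found in Ept2 for 0 of 3 lactotroph, 1 of 3 endothelial and 3 of 5 stroma markers. The counts were 0 of 3 for blood, 1 of 5 for leukocyte and 1 of 3 for posterior lobe and nerve markers. The 4 lactotroph markers summed to 54120 to 62020 in Ept2 and 52220 to 56490 elsewhere, which overlapped. That sum rests mainly on *Prl* (mean 46900 in Ept2 and 43250 to 44520 in the other lines). Of the 3 lactotroph markers tested, 1 lay above 0 in Ept2 and 2 below. For 4 endothelial markers the sum was 2532 to 3019 in Ept2 and 2122 to 2534 elsewhere, a narrow overlap, and all 3 tested markers lay above 0. Sums of stroma, blood and leukocyte markers, and of posterior lobe and nerve markers, overlapped between Ept2 and the other lines. The part of these measures in the lower mitotic signals was not tested. Array quality weights, which give less weight to arrays that fit poorly, were lowest for Ept2 replicates 1 and 2 (0.498 and 0.571). With these weights 29 of the 35 genes lay below 0 in Ept2, where 48.5% of all probe sets did. An unadjusted p under 0.05 was found for 9 genes, where 14.8% of all probe sets had such a p. Probe sets of 1 gene did not always point the same way, since in Ept2 9 of 16 further probe sets (5 of the 8 bright enough to be tested) had the sign of the brightest one. *Fam83d*, *Bub1*, *Birc5* and *Mki67* had only 1 probe set each.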

How the data were processed

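Anterior pituitary RNA was hybridised to 12 expression arrays, and the authors deposited linear microarray intensity values for 31099 probe sets, scaled to a common trimmed mean. Which software and background correction made them is not given in the sources used here. Groups came from the sample titles. The deposited intensity was turned into log2(signal + 16), 57 control probe sets were left out, and 12416 probe sets with a mean signal under the 40th percentile (69.48) were left out as dim, leaving 18626. Limma 3.58.1 in R 4.3.3 fitted all 12 arrays, with a moderated F test among lines and moderated tests of each line against the other 3 and of each pair, at an adjusted threshold of 0.05. The code was tested on simulated data. Gene symbols came from the platform annotation (1 symbol for 20832 probe sets, several for 436, none for 9831), and chromosomes and promoters from RefSeq GRCr8.

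The 40 genes, the lists and the tests were chosen with earlier results of these data known. Named with values were genes called in any comparison, the 10 with the smallest F test p, genes whose arrays did not overlap with the other lines, and well-known proliferation markers. The alternatives tried were quantile normalization, centring on array medians, a pseudocount of 1 or of 64, a filter at the 60th percentile or none, a replicate block, an eBayes trend, array quality weights, the mean of all probe sets and leaving out each array. With 3 arrays per line, array number limits the precision.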

Additional observations from a re-analysis of the deposited data

How the results depend on the processing

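The mean of the 35 genes kept its sign in every line under all 20 alternatives, from -0.36 to -0.22 in Ept2, 0.12 to 0.20 in Ept9, 0.06 to 0.15 in Ept1 and 0.01 to 0.06 in Ept6. No called difference changed sign, but estimates near 0 did, in 10 of the 35 genes in Ept2, 11 in Ept9, 14 in Ept1 and 16 in Ept6 under at least 1 alternative, none of them larger than 0.23. Counts of genes called were less stable. Without the filter on dim probe sets, the number called was 0 among the 4 lines (from 2), 1 in Ept2 (from 3), 0 in Ept9 (from 1), 0 between Ept1 and Ept2 and between Ept2 and Ept6 (from 1 each), and 1 between Ept2 and Ept9 (from 2). With the filter at the 60th percentile, under which *Birc5* and *Bub1* are too dim to be tested, it was 1 among the 4 lines, 1 in Ept2, 0 in Ept9 and 1 between Ept2 and Ept9. With an eBayes trend it was 1 among the 4 lines and 2 in Ept2 (*Birc5* lost), and with array quality weights 2 in Ept2 (*Bub1* lost). Leaving out 1 array in turn gave 0 to 2 among the 4 lines, 0 to 2 in Ept2, 0 to 1 in Ept9, 0 to 1 between Ept1 and Ept2 and between Ept2 and Ept6, and 1 to 2 between Ept2 and Ept9, and 0 in the other comparisons. Apart from the effect of the stricter filter, the cause was not tested.

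The replicate numbers do not pair the arrays, since deviations of arrays with the same number correlated from -0.14 to 0.07 and those with different numbers from -0.10 to 0.11. With the replicate block the number called was 0 among the 4 lines, 1 in Ept2, 0 in Ept9, 0 between Ept1 and Ept2 and between Ept2 and Ept6, and 1 between Ept2 and Ept9. Chosen after seeing the data were the counts of estimates below 0 under each alternative and the mean of the 35 genes without the genes on the chromosome of the segment (-0.24 in Ept2, 0.13 in Ept9) or without those called (-0.23 and 0.13). Signals of *Bub1b*, *Kif15*, *Cenpe* and *Birc5* fell below the brightness limit of 69.48 on some arrays.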
